A study of Mus musculus with 18 samples.

Results

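The 10 genes described here regulate epithelial identity or the epithelial-to-mesenchymal transition (EMT), and were followed through every condition of the series. They were chosen by name rather than by a measured value, but with earlier results of these data known. They comprise the repressors Snai1, Snai2, Zeb1, Zeb2 and Twist1, the epithelial transcription factors Grhl2, Grhl3 and Ovol2, and the splicing factors Esrp1 and Esrp2. Each symbol matched 1 Ensembl gene, giving 10 of the 49671 genes in the count table.

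Mouse embryonic stem (ES) cells were cultured inside growth-factor-depleted Matrigel and sequenced in bulk, with 3 samples in each of 6 groups. Wild-type E14 cells (strain label 12910la, passage 20) spent 48 h in N2B27 with DMSO, with the Gsk3 inhibitor CHIR99021 at 3 µM (CH), with CHIR99021 plus 0.4 µM of the Mek inhibitor PD0325901 (2i), or with Activin A (20 ng/ml) added to Fgf2 (12 ng/ml; FGF2_Activin). Esrrb fl/fl cells with a tamoxifen-inducible MerCreMer Cre (strain label Acr-EGFP transgenic mice, passage 25) were left untreated (Esrrb_NT) or given 4OHT for 1 day before 3D culture (Esrrb_4OHT), and both groups then spent 24 h with CHIR99021 at 3 µM. All lines had been maintained in 2i/Lif. No group received 4OHT without a floxed allele, so 4OHT and the deletion cannot be told apart. Total counts ranged from 25706865 to 37158661 in DMSO, 25388139 to 30799376 in CH, 28523527 to 33199666 in FGF2_Activin, 29148315 to 35089261 in 2i, 19915222 to 20140699 in Esrrb_4OHT and 19945865 to 20033764 in Esrrb_NT.

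Snail, Zeb and Twist proteins bind E-box sequences and repress genes of cell adhesion, among them E-cadherin. Grainyhead-like factors and Ovol2 support epithelial gene expression, and Zeb1 is a known target of repression by both. The Esrp proteins direct epithelial patterns of alternative splicing in transcripts such as that of Fgfr2.

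The cells labelled as ES cells expressed pluripotency markers. All 10 of a list for the naive state, which includes the core factors Pou5f1 and Sox2, averaged at least 1 CPM in every group. Their summed level was 826, 803 and 809 CPM in DMSO replicates 1, 2 and 3, 938, 941 and 943 in FGF2_Activin, 2682, 2746 and 2932 in CH and 3929, 3834 and 3762 in 2i. In the floxed line it was 1445, 1397 and 1344 CPM in Esrrb_4OHT and 2616, 2278 and 2356 in Esrrb_NT. Pou5f1 made up most of the sum in DMSO (602 CPM) and FGF2_Activin (748), and the list had a median log2 fold change of 3.61 in CH relative to DMSO and 4.41 in 2i relative to FGF2_Activin, with 10 of 10 values above 0 in each. Values in threes below keep this replicate order. Replicate 1 stood apart from the other 2 samples of its group, with a chi-square per gene of 11.8 to 65.9 against either of them and 1.46 to 8.57 between replicates 2 and 3. Among the 10 regulators, Zeb1 and Grhl2 were lowest in replicate 1 in 6 of 6 groups, and Zeb2, Twist1 and Grhl3 in 5 of 6. Snai2 was lowest there in 4 groups, and Snai1 and Ovol2 in 3. Esrp1 was lowest in 3 and highest in 3, and Esrp2 lowest in 1 and highest in 3. How often replicate 1 was lowest over all genes was not counted. The sources say in general that experiments were repeated, but neither they nor the labels say that these replicates were separate cultures, so the p-values measure only the spread between these samples, which may be technical.

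Esrrb itself, the deleted gene, was at 58.9, 63.8 and 59.8 CPM in Esrrb_4OHT and 142, 109.9 and 109 in Esrrb_NT. The 3 treated samples lay below the 3 untreated ones, with a log2 fold change of -0.99 ± 0.10, edgeR adjusted p = 7.44e-05, just short of the fold threshold of 1. Leaving out Esrrb_4OHT replicate 2, Esrrb_NT replicate 2 or Esrrb_NT replicate 3 took it past that threshold (-1.03, -1.06 and -1.06), as did the DESeq2 test (-1.001). Counts per gene sum all exons, so RNA from the exons that remain after recombination is still counted. How much of the level in Esrrb_4OHT came from such RNA was not tested. In the wild-type samples Esrrb stood at 30.2, 8.98 and 6.87 CPM in DMSO, 21.4, 11.5 and 9.21 in FGF2_Activin, 363, 286 and 313 in CH and 566, 552 and 530.4 in 2i.

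Per kilobase of exon, Esrp1, Grhl2 and Esrp2 led the set in DMSO. Esrp1 was highest at 30.2 CPM per kb, followed by Grhl2 (10.1), Esrp2 (5.83), Ovol2 (4.04), Snai1 (3.42), Twist1 (1.60), Grhl3 (1.29), Snai2 (0.288), Zeb2 (0.081) and Zeb1 (0.0328). Sample ranges overlapped between Ovol2 and Snai1, between Twist1 and Grhl3, and between Snai2 and Zeb2. The order in FGF2_Activin was the same but for Zeb1 and Zeb2, which overlapped at the bottom. With CH, Snai1 (10.96 CPM per kb) overlapped Esrp1 (12.3), and Grhl3, Esrp2, Grhl2 and Ovol2 followed with overlapping neighbours. In 2i, Snai1 (4.80), Esrp1 (4.68) and Grhl3 (4.43) overlapped at the top, while Grhl2 (1.03) overlapped Zeb1 (0.95). Esrp1 (15.0 CPM per kb) and Grhl2 (13.5) overlapped at the top in Esrrb_NT, and Snai1 (10.1) and Esrp1 (9.81) in Esrrb_4OHT, where Grhl2 (5.70) was next.

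**Figure D1:**
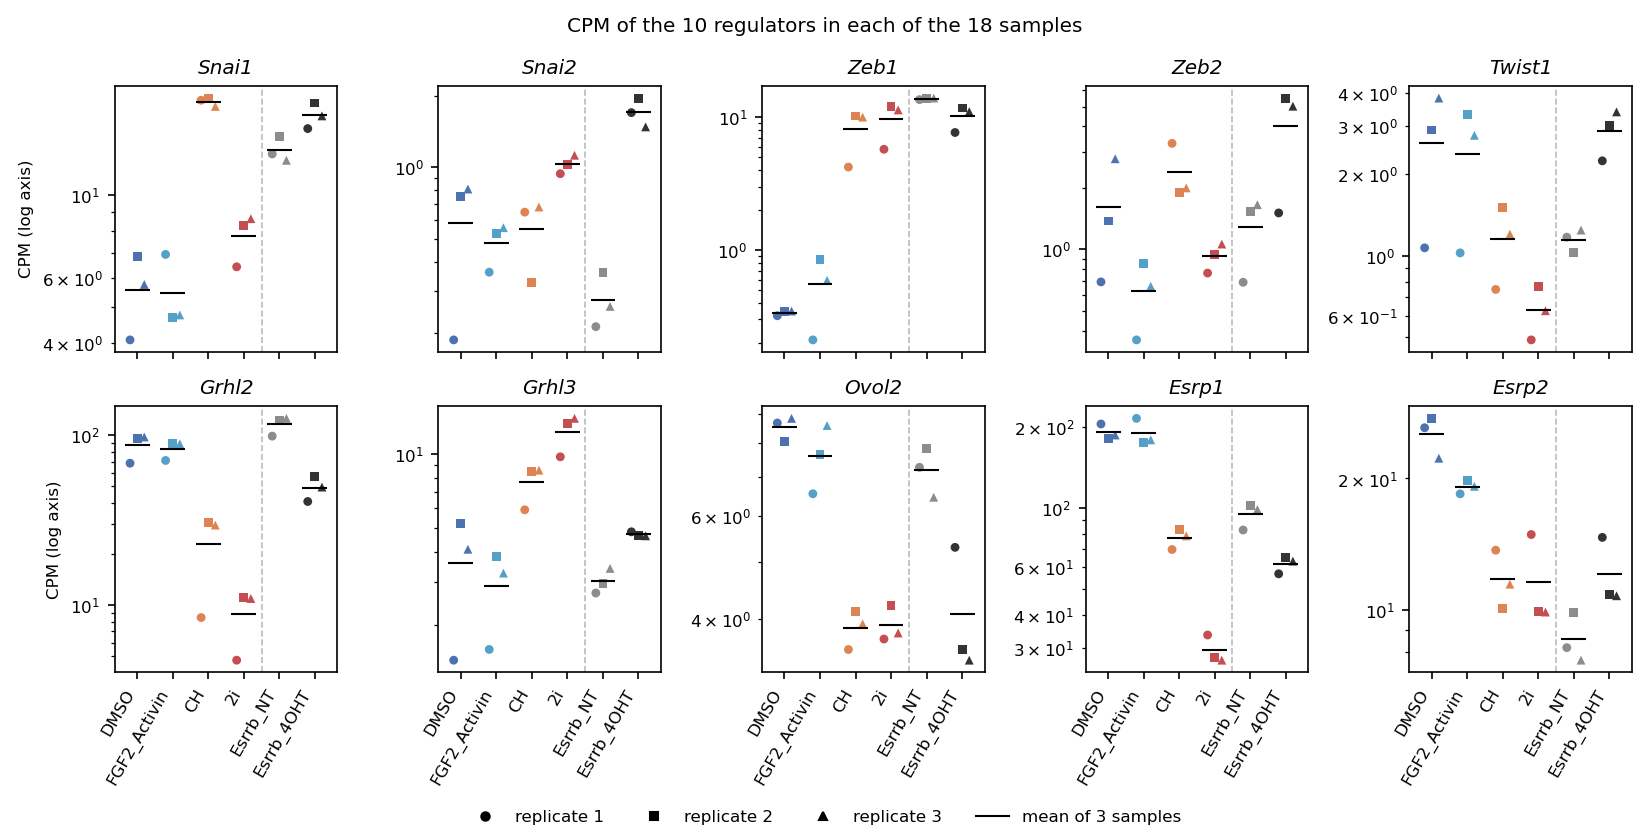
Level of each of the 10 regulators in every sample, in CPM on a log scale, by group (DMSO, CH, FGF2_Activin, 2i, Esrrb_4OHT and Esrrb_NT). Zeb1 separated the CH and 2i samples from DMSO and FGF2_Activin most widely, and Esrp1 was lowest in 2i.

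In CH, Snai1 and Zeb1 rose while 4 epithelial regulators fell. By the edgeR quasi-likelihood test, 2 of 10 regulators were higher relative to DMSO, where 7.51% of the 16413 genes tested rose, and 4 of 10 lower (Grhl2, Ovol2, Esrp1 and Esrp2), where 10.2% of all genes fell, the latter count being 3 without DMSO replicate 2, without DMSO replicate 3 or with only the 6 samples compared, and 5 without replicate 1 of every group or with a block, which also gave 3 higher. Comparing 2i with FGF2_Activin, 2 of 10 rose (Zeb1 and Grhl3; 9.13% of all genes) and 2 of 10 fell (Grhl2 and Esrp1; 14.4% of all genes), the latter count being 4 without FGF2_Activin replicate 1, without replicate 1 of every group or with unscaled totals, and 3 without 2i replicate 2, with a block, with no filter on low counts or by the DESeq2 test. Between 2i and CH, which differ by the Mek inhibitor, 2 of 10 fell in 2i (Snai1 and Esrp1; 1.67% of all genes), a count of 1 when CH replicate 2, CH replicate 3 or any 2i replicate was left out or only the 6 samples were compared, and 3 without replicate 1 of every group or with a block. In that comparison edgeR and DESeq2 each found 0 of 10 higher, 0 even at unadjusted p under 0.05, and 0.317% of all genes rose. FGF2_Activin relative to DMSO gave 0 of 10 higher and 0 of 10 lower by edgeR and by DESeq2, where 0.902% and 0.347% of all genes rose and fell. At unadjusted p under 0.05 edgeR found 0 regulators higher and 2 lower there (Zeb2 and Esrp2), and 1 (Zeb2) passed without replicate 1 of every group. In Esrrb_4OHT relative to Esrrb_NT, 2 of 10 rose (Snai2 and Twist1; 12.8% of the 14893 genes tested) and 1 of 10 fell (Grhl2; 3.87% of all genes), counts of 3 and 2 without Esrrb_4OHT replicate 1 or without replicate 1 of every group, and of 3 and 1 with a block, with no filter on low counts or by the DESeq2 test. Each gene is 10% of the set, so the shares move in large steps, and whether they differ from those of all genes was not tested. Groups without overlapping samples were common. In CH relative to DMSO, 24.5% of all genes were wholly higher and 25.2% wholly lower. These shares were 31.1% and 32.0% in 2i relative to FGF2_Activin and 12.7% and 13.1% in 2i relative to CH. They were 11.8% and 12.5% in FGF2_Activin relative to DMSO and 34.4% and 31.5% in Esrrb_4OHT relative to Esrrb_NT.

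The median log2 fold change of the 5 repressors was 0.59 in CH relative to DMSO, 0.57 in 2i relative to FGF2_Activin and 1.33 in Esrrb_4OHT relative to Esrrb_NT. It was -1.14, -0.96 and -0.82 for the 3 epithelial transcription factors, and -1.21, -1.71 and -0.057 for Esrp1 and Esrp2. Members of a class differed in sign, since Grhl3 had values of 1.10, 2.098 and 0.63, and with 4OHT Esrp1 had -0.61 and Esrp2 0.50. Medians over all genes were -0.0022, 0.00215 and 0.00214. The repressor medians in CH and 2i were the values of Zeb2, which passed in neither. The Zeb2 values ranged over 0.22 to 1.22 and 0.29 to 0.87 when samples were left out in turn, and that in CH was -0.058 without replicate 1 of every group. Class medians were, for 2i relative to CH, -0.87, 0.014 and -0.71, and in FGF2_Activin relative to DMSO -0.12, -0.17 and -0.21, beside -0.00326 and -0.0213 over all genes. The comparisons of CH and of FGF2_Activin with DMSO share the DMSO samples, and the wild-type comparisons that include 2i share the 2i samples.

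**Figure D2:**
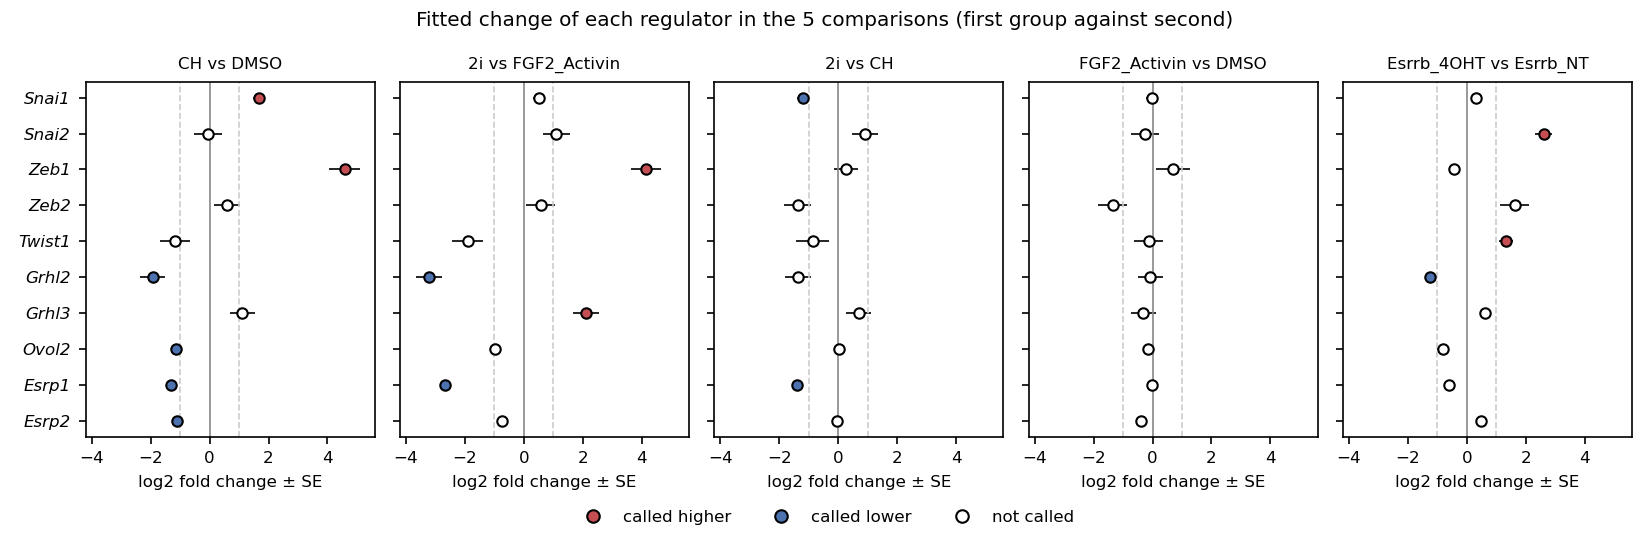
Log2 fold change of each regulator with its standard error in the 5 comparisons, filled where the edgeR test and the fold threshold (dashed lines) were passed. Zeb1 and Esrp1 lay on opposite sides of 0 in CH vs DMSO and in 2i vs FGF2_Activin, and no point was filled for FGF2_Activin relative to DMSO.

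Snai1, a zinc-finger repressor of Cdh1 that acts early in gastrulation EMT, was highest in CH. It was at 4.08, 6.82 and 5.75 CPM in DMSO, 6.92, 4.70 and 4.76 in FGF2_Activin, 17.9, 18.2 and 17.2 in CH and 6.41, 8.29 and 8.62 in 2i. All 3 CH samples lay above the other 9 wild-type samples, and DMSO overlapped FGF2_Activin and 2i. Snai1 rose 3.20-fold in CH relative to DMSO (log2 fold change 1.68 ± 0.22, edgeR adjusted p = 0.00011), a call kept in 13 of 13 alternatives, and was 2.28-fold lower in 2i than in CH (-1.19 ± 0.21, edgeR adjusted p = 0.00673). The second call was lost on leaving out any of the 6 samples, with a log2 fold change of -1.27 to -1.07 and an edgeR adjusted p of 0.0176 to 0.0272 over the 6 fits. The comparison of 2i with FGF2_Activin did not pass (0.51 ± 0.21, edgeR adjusted p = 0.0678). In floxed cells, where both groups received CHIR99021, Snai1 was at 15.0, 17.6 and 16.3 CPM in Esrrb_4OHT and 12.9, 14.3 and 12.4 in Esrrb_NT, high in both, with no overlap between the groups but a log2 fold change of only 0.31 ± 0.10, edgeR adjusted p = 0.0303.

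Snai2, the related repressor of neural crest and mesoderm EMT, was scarce in wild-type cells. Its counts were 7, 24 and 21 in DMSO, 19, 10 and 17 in CH, 12, 16 and 16 in FGF2_Activin and 27, 35 and 36 in 2i, mostly under 1 CPM. The 2i samples were the highest of these, and Snai2 did not pass in 2i relative to FGF2_Activin (1.10 ± 0.46, edgeR adjusted p = 0.0641) or in CH relative to DMSO (-0.058 ± 0.47, edgeR adjusted p = 0.937). Its counts were 35, 41 and 31 in Esrrb_4OHT and 4, 7 and 5 in Esrrb_NT, or 1.70, 1.96 and 1.48 and 0.213, 0.359 and 0.259 CPM. Here Snai2 rose 6.07-fold with 4OHT (log2 fold change 2.60 ± 0.29, edgeR adjusted p = 0.000106), from a level close to absence, and this was the largest change of any regulator in that comparison.

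Zeb1, a repressor of Cdh1 and of epithelial splicing and polarity genes, was nearly absent from DMSO and FGF2_Activin and present in CH and 2i. It was at 0.32, 0.344 and 0.347 CPM in DMSO (12, 11 and 9 counts) and 0.211, 0.854 and 0.591 in FGF2_Activin (7, 26 and 17 counts). In CH it reached 4.22, 10.2 and 10.04 CPM and in 2i 5.75, 12.2 and 11.4, so that the lowest CH or 2i sample was far above the highest of the other 6. Zeb1 rose 24.0-fold in CH relative to DMSO (log2 fold change 4.58 ± 0.53, edgeR adjusted p = 5.05e-05) and 17.7-fold in 2i relative to FGF2_Activin (4.15 ± 0.50, edgeR adjusted p = 4.74e-05), the largest change of the 10 in both. CH and 2i overlapped, with a log2 fold change of 0.26 ± 0.42, edgeR adjusted p = 0.834. The floxed line under CHIR99021 also held Zeb1, at 7.69, 11.8 and 11.05 CPM in Esrrb_4OHT and 13.6, 13.9 and 13.97 in Esrrb_NT, with every treated sample below every untreated one. That difference did not pass (-0.44 ± 0.15, edgeR adjusted p = 0.0341).

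Zeb2, the paralogue of Zeb1, was low in every group. Its counts were 26, 44 and 72 in DMSO, 97, 58 and 50 in CH, 12, 26 and 19 in FGF2_Activin and 22, 32 and 34 in 2i, and CH overlapped DMSO. No wild-type comparison passed, the log2 fold changes being 0.59 ± 0.45, edgeR adjusted p = 0.323, in CH relative to DMSO, 0.57 ± 0.50, edgeR adjusted p = 0.365, in 2i relative to FGF2_Activin, -1.37 ± 0.47, edgeR adjusted p = 0.116, in 2i relative to CH, and -1.35 ± 0.49, edgeR adjusted p = 0.173, in FGF2_Activin relative to DMSO. The last passed without replicate 1 of every group (-1.41, edgeR adjusted p = 0.00675; 0.00675 to 0.472 over all alternatives). Zeb2 was at 1.51, 5.50 and 5.02 CPM in Esrrb_4OHT and 0.691, 1.54 and 1.66 in Esrrb_NT, and treated replicate 1 lay inside the untreated range. The log2 fold change of 1.62 ± 0.49, edgeR adjusted p = 0.0192, did not pass in the reported fit. It passed in 5 alternatives, by edgeR with replicate number as a block (1.61, edgeR adjusted p = 1.79e-05; 7.63e-08 to 0.0701 over all alternatives), with no filter on low counts (1.62, adjusted p = 0.0045), without replicate 1 of every group (1.71, adjusted p = 7.63e-08) and without Esrrb_4OHT replicate 1 (2.01, adjusted p = 0.000449), and by the DESeq2 test (1.61, adjusted p = 0.00219).

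Twist1, a basic helix-loop-helix repressor of mesoderm and neural crest, had its lowest mean in 2i among the wild-type groups. It was at 1.07, 2.91 and 3.82 CPM in DMSO, 1.02, 3.32 and 2.78 in FGF2_Activin, 0.749, 1.504 and 1.20 in CH and 0.488, 0.767 and 0.625 in 2i. Replicate 1 was low in DMSO and FGF2_Activin, and CH overlapped both DMSO and 2i, whereas all 3 of the 2i samples lay below FGF2_Activin. The log2 fold change was -1.16 ± 0.51, edgeR adjusted p = 0.0901, in CH relative to DMSO and -1.91 ± 0.53, edgeR adjusted p = 0.0114, in 2i relative to FGF2_Activin, neither of which passed. The first passed by edgeR in 2 of 13 alternatives, with replicate number as a block (-1.09, adjusted p = 0.00414; 0.000183 to 0.295 over all alternatives) and without replicate 1 of every group (-1.28). The second passed in 6 of 13, by the DESeq2 test (-1.93, adjusted p = 0.00161; 2.75e-06 to 0.0471 over all alternatives), and by edgeR with a block (-1.85), no filter on low counts (-1.903), unscaled totals (-1.95), without replicate 1 of every group (-2.12) and without FGF2_Activin replicate 1 (-2.27). Among floxed samples Twist1 was at 2.24, 3.01 and 3.40 CPM in Esrrb_4OHT and 1.17, 1.02 and 1.24 in Esrrb_NT, without overlap. It rose 2.51-fold with 4OHT (log2 fold change 1.33 ± 0.23, edgeR adjusted p = 0.00108). Neither 2i relative to CH nor FGF2_Activin relative to DMSO passed (-0.87 ± 0.55, edgeR adjusted p = 0.451; -0.12 ± 0.49, edgeR adjusted p = 0.94).

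Grhl2, a grainyhead-like activator of Cdh1 and tight junction genes, was high in DMSO and FGF2_Activin and low in CH and 2i. It was at 68.6, 95.7 and 97.8 CPM in DMSO, 71.2, 89.5 and 89.2 in FGF2_Activin, 8.45, 30.6 and 29.6 in CH and 4.74, 11.1 and 10.9 in 2i. Neither CH nor 2i overlapped DMSO or FGF2_Activin, and CH overlapped 2i only through its replicate 1. Grhl2 fell 3.82-fold in CH relative to DMSO (log2 fold change -1.93 ± 0.43, edgeR adjusted p = 0.00378) and 9.31-fold in 2i relative to FGF2_Activin (-3.22 ± 0.45, edgeR adjusted p = 0.000138). The CH call was lost without DMSO replicate 2 (-1.86, edgeR adjusted p = 0.0128) or DMSO replicate 3 (-1.84, edgeR adjusted p = 0.0127; 2.39e-12 to 0.0173 over all alternatives), or with only the 6 samples compared. Between 2i and CH the log2 fold change was -1.36 ± 0.43, edgeR adjusted p = 0.0947, which passed only with replicate number as a block (-1.31, edgeR adjusted p = 0.00553; 1.58e-09 to 0.289 over all alternatives), without CH replicate 1 (-1.75, edgeR adjusted p = 0.00679) or without replicate 1 of every group. Among floxed samples Grhl2 was at 40.8, 56.9 and 49.6 CPM in Esrrb_4OHT and 99.0, 123 and 126 in Esrrb_NT, and fell 2.36-fold with 4OHT (log2 fold change -1.24 ± 0.13, edgeR adjusted p = 7.48e-05).

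Grhl3, the grainyhead-like factor of surface ectoderm and epidermal barrier, was highest in 2i. It was at 1.44, 5.23 and 4.09 CPM in DMSO, 1.59, 3.81 and 3.27 in FGF2_Activin, 5.93, 8.47 and 8.60 in CH and 9.75, 13.3 and 13.999 in 2i. The 2i samples were the highest and the CH samples lay above DMSO, while DMSO and FGF2_Activin overlapped. Grhl3 rose 4.28-fold in 2i relative to FGF2_Activin (log2 fold change 2.098 ± 0.43, edgeR adjusted p = 0.00191). In CH relative to DMSO it did not pass (1.10 ± 0.42, edgeR adjusted p = 0.056) except with replicate number as a block (1.20, edgeR adjusted p = 0.000979; 5.94e-05 to 0.129 over all alternatives), and in 2i relative to CH it did not either (0.69 ± 0.41, edgeR adjusted p = 0.421). Grhl3 was at 4.82, 4.64 and 4.64 CPM in Esrrb_4OHT and 2.71, 2.97 and 3.41 in Esrrb_NT, higher with 4OHT in every sample but short of the fold threshold (0.63 ± 0.15, edgeR adjusted p = 0.00661).

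The make-up of the Grhl family differed between conditions. Of the summed level of Grhl1, Grhl2 and Grhl3 per kilobase, Grhl2 held 69.4 ± 1.74% in DMSO, 66.8 ± 2.21% in FGF2_Activin, 33.2 ± 12.4% in CH and 15.2 ± 4.27% in 2i (mean ± SD, n = 3). Grhl3 held 8.39 ± 3.599%, 7.03 ± 2.33%, 37.2 ± 3.33% and 66.9 ± 1.49% in the same groups, so that it was the main Grhl transcript in 2i. In CH the order turned on replicate 1, with Grhl2 at 18.9, 40.3 and 40.4% and Grhl3 at 40.9, 34.4 and 36.3%. Among floxed samples Grhl2 held 85.4 ± 0.257% in Esrrb_NT and 68.9 ± 3.64% in Esrrb_4OHT, and Grhl3 6.91 ± 0.488% and 20.7 ± 2.82%. Esrp2 held 16.2 ± 1.70% of the summed Esrp1 and Esrp2 level in DMSO, 12.9 ± 1.59% in FGF2_Activin, 18.2 ± 3.65% in CH and 35.9 ± 2.76% in 2i, and 11.7 ± 1.32% in Esrrb_NT and 22.1 ± 4.43% in Esrrb_4OHT.

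**Figure D3:**
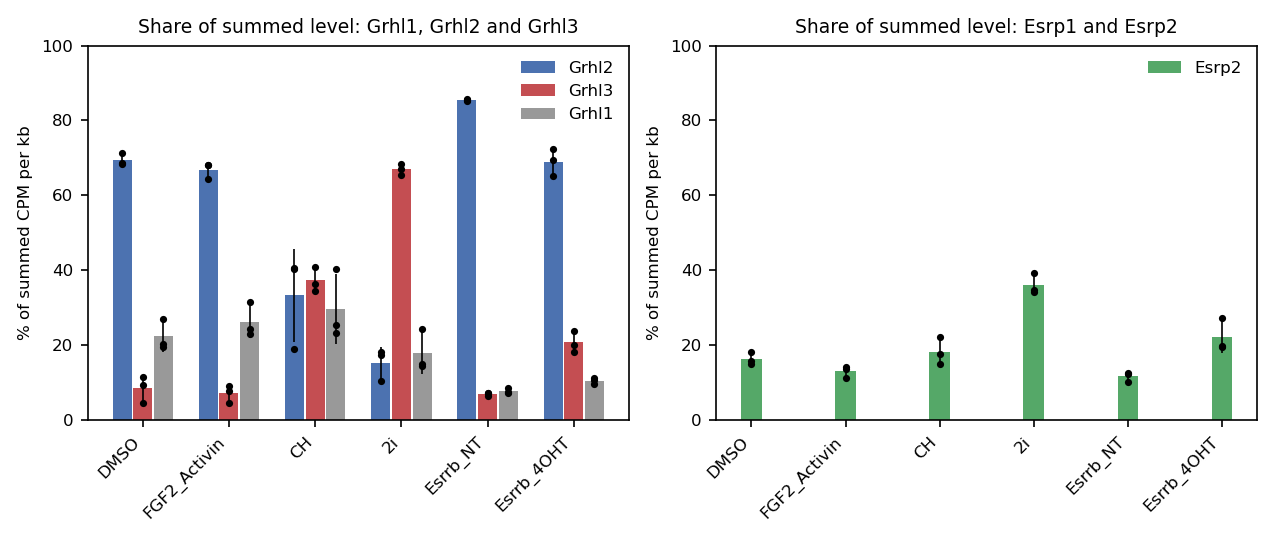
Percentage of the summed CPM per kb held by each Grhl gene (left) and by Esrp2 of the Esrp pair (right), with bars for group means, lines for SD and points for samples. Grhl3 made up most of the Grhl sum in 2i and little of it in DMSO, FGF2_Activin and Esrrb_NT.

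Ovol2, a zinc-finger repressor of Zeb1 and other mesenchymal genes, was lower in CH and 2i than in DMSO and FGF2_Activin. It was at 8.67, 8.07 and 8.83 CPM in DMSO, 6.56, 7.66 and 8.59 in FGF2_Activin, 3.54, 4.12 and 3.92 in CH and 3.69, 4.22 and 3.78 in 2i. CH and 2i overlapped each other and neither overlapped DMSO or FGF2_Activin. Ovol2 fell 2.21-fold in CH relative to DMSO (log2 fold change -1.14 ± 0.15, edgeR adjusted p = 0.000107). Relative to FGF2_Activin, 2i gave -0.96 ± 0.15, edgeR adjusted p = 0.000238, just inside the fold threshold, and beyond it without FGF2_Activin replicate 1 (-1.05) or 2i replicate 2 (-1.01), without replicate 1 of every group (-1.01) or with unscaled totals (-1.01). Between 2i and CH the log2 fold change was 0.014 ± 0.15, edgeR adjusted p = 0.979. Floxed cells held it at 5.30, 3.54 and 3.40 CPM in Esrrb_4OHT and 7.28, 7.84 and 6.47 in Esrrb_NT, lower in every treated sample (-0.82 ± 0.19, edgeR adjusted p = 0.00579), and past the fold threshold without Esrrb_4OHT replicate 1 (-1.05) or replicate 1 of every group (-1.05).

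Esrp1, the main epithelial splicing factor of the set, was the most abundant in DMSO and fell in each of 3 wild-type comparisons. It was at 205, 181 and 186 CPM in DMSO, 215, 175 and 179 in FGF2_Activin, 69.9, 83.3 and 78.6 in CH and 33.6, 27.8 and 27.1 in 2i. DMSO and FGF2_Activin overlapped at the top, CH lay below both, and 2i lay below CH. Esrp1 fell 2.47-fold in CH relative to DMSO (log2 fold change -1.30 ± 0.11, edgeR adjusted p = 5.73e-06), 6.42-fold in 2i relative to FGF2_Activin (-2.68 ± 0.12, edgeR adjusted p = 3.61e-08) and 2.62-fold in 2i relative to CH (-1.39 ± 0.11, edgeR adjusted p = 0.000103). All 3 calls were kept in every alternative. With 4OHT Esrp1 was at 56.8, 65.4 and 63.3 CPM in Esrrb_4OHT and 82.6, 102 and 98.4 in Esrrb_NT, lower in each treated sample but inside the fold threshold (-0.61 ± 0.089, edgeR adjusted p = 0.000463).

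Esrp2, the paralogue of Esrp1, was highest in DMSO among the wild-type groups. It was at 26.2, 27.5 and 22.3 CPM in DMSO, 18.4, 19.8 and 19.2 in FGF2_Activin, 13.7, 10.1 and 11.4 in CH and 14.9, 9.91 and 9.87 in 2i. CH and 2i overlapped, both lay below FGF2_Activin, and FGF2_Activin lay below DMSO. Esrp2 fell 2.16-fold in CH relative to DMSO (log2 fold change -1.11 ± 0.17, edgeR adjusted p = 0.000443), and did not pass the fold threshold in 2i relative to FGF2_Activin (-0.73 ± 0.17, edgeR adjusted p = 0.00461) or any threshold in 2i relative to CH (-0.024 ± 0.17, edgeR adjusted p = 0.97) and FGF2_Activin relative to DMSO (-0.40 ± 0.17, edgeR adjusted p = 0.261). With 4OHT it was 14.6, 10.8 and 10.8 CPM beside 8.18, 9.84 and 7.66 in Esrrb_NT, higher in each treated sample (0.50 ± 0.16, edgeR adjusted p = 0.025), the opposite sign to Esrp1. The 2 signs were not compared by a test.

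In FGF2_Activin relative to DMSO the other regulators had log2 fold changes of -0.021 (Snai1), -0.25 (Snai2), 0.70 (Zeb1), -0.069 (Grhl2), -0.31 (Grhl3), -0.17 (Ovol2) and -0.0085 (Esrp1). The remaining value, Snai2 in 2i relative to CH, was 0.91 ± 0.45, edgeR adjusted p = 0.309. Where a regulator passed in one comparison and not in another, the difference between the comparisons was not tested. Fewer cells with a transcript and less of it per cell cannot be told apart in bulk RNA. E14 and floxed cells differ in line, passage and culture time and were scaled separately, so their levels were set side by side without a test.

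For genes whose transcripts are spliced by Esrp proteins, only whole-gene counts were available, which do not show which exons were used. Fgfr2, whose epithelial exon depends on the Esrp proteins, was at 43.6, 27.7 and 44.9 CPM in DMSO and 1.67, 7.42 and 6.88 in CH. It was the only gene of 10 to pass in CH relative to DMSO, and fell (log2 fold change -2.86 ± 0.44, edgeR adjusted p = 0.000373; list median -0.32), while by edgeR 0 rose (2 at unadjusted p under 0.05, 0 by DESeq2). Comparing 2i with FGF2_Activin, edgeR gave 0 of 10 higher (4 at unadjusted p under 0.05, 0 by DESeq2) and 0 lower (2 and 1), with a median of 0.085. With 4OHT, Cd44 rose (2.96 ± 0.25, edgeR adjusted p = 2.32e-05) and Enah fell (-1.20 ± 0.071, edgeR adjusted p = 5.40e-06), 1 of 10 in either direction, and the median was 0.15. Over all genes tested, 7.51% rose and 10.2% fell in CH relative to DMSO. These shares were 9.13% and 14.4% in 2i relative to FGF2_Activin, and 12.8% and 3.87% with 4OHT. The 1 of 10 lower in CH and the 1 of 10 higher with 4OHT were thus near the shares of all genes.

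Other regulators linked to EMT, epithelial identity or splicing moved both ways. Of 12 further genes linked to EMT, 8 were tested in wild-type cells. They are called other repressors below, without regard to how each acts. Tcf4, Klf8 and Hmga2 rose while Sox4, Snai3 and Sox9 fell in CH relative to DMSO (median -0.15) and in 2i relative to FGF2_Activin (-0.26). Tcf4 had log2 fold changes of 1.37 and 1.61 and Sox4 of -2.83 and -2.95. Tcf4 here is the gene ENSMUSG00000053477 and not Tcf7l2, for which the same name is also used. In CH, Hmga2 did not pass without DMSO replicate 2 (0.95) or DMSO replicate 3 (0.97), Snai3 without DMSO replicate 1 (-1.69), CH replicate 2 (-1.95) or CH replicate 3 (-1.92), and Sox9 without any sample but DMSO replicate 1, with log2 fold changes that stayed at -2.95 to -2.303 and an edgeR adjusted p of 0.018 to 0.0371. The number lower was 1 without CH replicate 2, without CH replicate 3 or with only the 6 samples compared. In the floxed line 7 were tested, Snai3 rose (2.49; list median 0.25) and 0 fell by edgeR (2 at unadjusted p under 0.05, 0 by DESeq2). Of 17 further epithelial factors 11 were tested, 7 rose with CH and 1 fell (median 1.59), and 6 rose and 2 fell in 2i relative to FGF2_Activin (1.91). The number higher in CH was 6 by the DESeq2 test and 5 to 6 on leaving out each sample in turn. In 2i these were 7 and 5 to 7. In CH, Foxa2 did not pass by the DESeq2 test (1.59) or with DESeq2 size factors (1.58). Nor did it on leaving out any sample but DMSO replicate 3 (1.18 to 1.70). Tfap2c did not pass without DMSO replicate 2 (1.91), DMSO replicate 3 (1.91) or CH replicate 2 (2.19), or with only the 6 samples compared (2.22). Klf4 (4.13 and 4.77), Klf5 (1.53 and 1.91) and Tfap2a (4.21 and 5.09) rose in both, and Grhl1 fell in the second (-1.72). Klf4 is also on the list for the naive state, Foxa2 on that for primitive endoderm and Cdx2 on that for trophectoderm. These lists therefore share genes and are not separate observations. In CH the number lower went from 1 to 3 without replicate 1 of every group, and to 0 without DMSO replicate 2, DMSO replicate 3, CH replicate 1 or CH replicate 3 or with only the 6 samples compared. In 2i it went from 2 to 4 without replicate 1 of every group, and to 1 without FGF2_Activin replicate 3, 2i replicate 2 or 2i replicate 3. With 4OHT 3 of them rose and 3 fell, Klf4 (-1.83) and Tfap2a (-2.17) among them (median -0.52), with 5 higher without Esrrb_4OHT replicate 1, without replicate 1 of every group or by the DESeq2 test, and 6 with no filter on low counts. Of 10 further splicing regulators, edgeR gave 0 higher and 0 lower in CH relative to DMSO (2 and 3 at unadjusted p under 0.05, 0 and 1 by DESeq2; median -0.036; 1 lower without DMSO replicate 1, without replicate 1 of every group, with a block or with no filter on low counts). Between 2i and FGF2_Activin 0 rose (2 at unadjusted p under 0.05, 0 by DESeq2) and Rbfox1 fell by edgeR, from 31, 21 and 21 counts to 1, 0 and 3 (list median 0.10), and of 9 tested in the floxed line Mbnl2 rose (1.11; 0.97 and not called without replicate 1 of every group) and 0 fell (5 at unadjusted p under 0.05, 0 by DESeq2; median -0.17).

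Genes that mark the 2 cell states were counted beside the regulators. Of 35 epithelial genes, 1 rose and 19 fell in CH relative to DMSO (median -1.53), 2 rose and 18 fell in 2i relative to FGF2_Activin (-1.57), and 20 rose and 2 fell in Esrrb_4OHT relative to Esrrb_NT (1.32). Over all genes tested, 7.51%, 9.13% and 12.8% rose and 10.2%, 14.4% and 3.87% fell in these comparisons. The number lower in CH was 21 by DESeq2 and 15 to 25 on leaving out each sample in turn. In 2i it was 20 and 15 to 21, and the number higher with 4OHT was 20 and 19 to 20. Krt18 had log2 fold changes of -5.99, -6.02 and 4.41 in these comparisons, and Epcam of -1.53, -1.93 and -0.33, the last not passing. The number higher in 2i was 1 without FGF2_Activin replicate 2, without FGF2_Activin replicate 3 or with unscaled totals. Cdh1, the most abundant of the list, averaged 944 CPM in DMSO, 900.2 in FGF2_Activin, 497 in CH, 652 in 2i, 807 in Esrrb_4OHT and 617 in Esrrb_NT, and passed in none of the 3 (-0.93, -0.46 and 0.39). Of 30 mesenchymal genes, 19 were tested in wild-type cells and 21 in the floxed line, and 6 rose and 2 fell in CH relative to DMSO (median -0.015), 6 rose and 5 fell in 2i relative to FGF2_Activin (-0.39), and 12 rose and 2 fell with 4OHT (1.24). Vim (1.97 and 2.34) and Fn1 (1.77 and 1.89) rose in the first and second, and with 4OHT they had values of 0.93, past the threshold without Esrrb_4OHT replicate 1 (1.21), without replicate 1 of every group (1.18) and with unscaled totals (1.05), and -0.64. Cdh2 passed in none (0.78, -0.39 and 1.02), but did with 4OHT when Esrrb_4OHT replicate 1 (1.35) or replicate 1 of every group (1.26) was left out and with no filter on low counts (1.01). The number lower in CH went from 2 to 5 without replicate 1 of every group, to 1 without CH replicate 2 or with only the 6 samples compared, and to 0 without CH replicate 3, and with 4OHT it went from 2 to 4 without Esrrb_NT replicate 3.

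Markers of other cell types changed alongside the regulators. Of 13 primitive streak and mesoderm markers, 7 averaged at least 1 CPM in CH, summing to 708, 538 and 466 CPM with T the most abundant (534) and Gsc, Mesp1, Msgn1 and Meox1 at 3 counts or fewer. The sum was 11.2, 17.0 and 16.3 CPM in DMSO (1 of 13), 18.5, 35.9 and 34.7 in FGF2_Activin (4 of 13) and 123, 90.2 and 88.3 in 2i (4 of 13). In the floxed line it was 483, 605 and 609 in Esrrb_4OHT (6 of 13, Gsc and Msgn1 at 3 counts or fewer) and 81.3, 101 and 103 in Esrrb_NT (3 of 13), with Eomes the most abundant in DMSO and FGF2_Activin and T elsewhere. The sum did not stand for every marker. Of 8 tested, 6 had a positive log2 fold change in CH relative to DMSO (median 3.08) and 2 in 2i relative to FGF2_Activin (-1.31), and of 7 tested 6 did with 4OHT (3.23). Eomes averaged 11.5 CPM in DMSO, 2.71 in CH, 14.3 in FGF2_Activin and 3.81 in 2i, and Mesp2 0.817 in DMSO and 0.175 in CH, both against the direction of T. Of 9 neural markers, 2 averaged at least 1 CPM in Esrrb_4OHT and 3 in Esrrb_NT, summing to 218, 227 and 226 CPM (Nes, 207) and 65.1, 83.5 and 88.2, with Neurog2 and Hes5 at 3 counts or fewer in both. Nes was higher with 4OHT while Foxd3 and Pax6 were lower. Foxd3 averaged 14.6 CPM in Esrrb_4OHT and 45.7 in Esrrb_NT, Pax6 0.432 and 1.42, and the median of the 3 tested was -1.64. Their part in the result was not tested.

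Sequence upstream of annotated starts was searched for 4 short motifs. RefSeq promoter entries were available for 5 of 10 genes (Snai1, Zeb2, Twist1, Grhl3 and Ovol2), and the 250 bases upstream of each start (GRCm38.p6) were searched on both strands for the E-box bound by Snail and Zeb proteins, CAGGTG, and for CTTTGAT (TCF/LEF), AACCGGTT (grainyhead) and AAGGTCA (Esrrb). Only the E-box was found, in Snai1 126 bases and in Grhl3 19 bases upstream of the start, and over 32851 promoters the 4 motifs occurred in 17.2%, 3.21%, 0.116% and 4.08%. The 2 windows with a match are given because both genes changed in the wild-type comparisons, with the E-box in capitals, at chr2:167537945-167538194 on the plus strand and chr4:135573633-135573882 on the minus strand. The Ovol2 window and 3 of the 4 Zeb2 windows lay wholly or mostly inside annotated exons. A match describes the sequence and was not tested for binding.
Snai1: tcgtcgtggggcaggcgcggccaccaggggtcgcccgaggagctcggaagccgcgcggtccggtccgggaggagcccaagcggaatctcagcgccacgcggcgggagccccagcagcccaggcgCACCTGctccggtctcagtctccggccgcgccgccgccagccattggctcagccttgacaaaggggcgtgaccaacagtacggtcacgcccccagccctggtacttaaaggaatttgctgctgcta
Grhl3: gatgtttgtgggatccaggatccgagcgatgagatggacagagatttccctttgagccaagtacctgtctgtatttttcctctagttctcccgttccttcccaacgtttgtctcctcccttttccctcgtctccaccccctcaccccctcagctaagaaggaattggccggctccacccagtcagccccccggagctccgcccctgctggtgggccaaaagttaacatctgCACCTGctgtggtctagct

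The regulators lie at chr2:167538195-167542814 (Snai1), chr16:14705852-14709385 (Snai2), chr18:5591860-5775467 (Zeb1), chr2:44983632-45117395 (Zeb2), chr12:33957671-33959829 (Twist1), chr15:37233036-37363569 (Grhl2), chr4:135541888-135573630 (Grhl3), chr2:144305175-144332146 (Ovol2), chr4:11331933-11386783 (Esrp1) and chr8:106130319-106136974 (Esrp2) in GRCm38. Reads were counted without regard to strand, so reads in exon bases shared with a gene on the other strand cannot be assigned by strand. Whether such reads were counted for the regulator was not tested. No exon base of Snai1, Snai2, Twist1 or Grhl3 is shared with another gene, 17.0% are for Ovol2, 7.79% for Esrp2, which overlaps the expressed gene Nfatc3, and 1.93 to 3.3% for the other 4. Stretches of at least 75 bases with at least 95% identity to other genes were found for 7 of 10, and for none of Snai1, Twist1 and Grhl3. For Ovol2, Esrp1 and Esrp2 the only such matches were to genes that overlap them at the same place.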

How the data were processed

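The deposited count table of the authors was used as given, with counts per Ensembl gene made by the authors with TopHat2 v2.1.1 on mm10 and HTSeq v0.7.2 without strand. The 10 members and the gene lists were chosen with earlier results of these data known. Of 49671 identifiers, 49326 matched a gene of GENCODE M21. CPM on TMM-scaled library sizes, and CPM per kilobase of merged exon, were computed here from the counts, and the wild-type and floxed samples were scaled and fitted separately.

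Groups were compared with the edgeR 4.0.16 quasi-likelihood test (R 4.3.3, limma 3.58.1) after a filter on low counts, which left 16413 genes in the 12 wild-type samples and 14893 in the 6 floxed samples, and p was adjusted over all of them by Benjamini and Hochberg. A gene rose or fell where the adjusted p was below 0.01 and the absolute log2 fold change above 1. Errors of log2 fold changes are standard errors, and those of levels and shares are SD over 3 samples. All 10 members passed the filter in both fits.

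Samples with the same replicate number varied together about their group means. In wild-type cells all 18 such pairs had a Pearson r above 0.1 (mean 0.58 over 10471 genes, -0.222 between different numbers), and in the floxed line 3 of 3 did (mean 0.442 over 10290 genes, -0.182 between different numbers). The negative means came from replicate 1, with r of -0.786 to -0.401 (wild type) and -0.496 to -0.424 (floxed) against replicates 2 and 3 of other groups. Replicates 2 and 3 of different groups had r of 0.368 to 0.717 and 0.321 to 0.431, so the values set number 1 apart but do not tell 2 from 3. Replicate number was used as a block only in an alternative fit. The other alternatives were DESeq2 size factors, no filter on low counts, the DESeq2 1.42.0 test, only the 6 samples compared, and each sample left out in turn. Scaling to unscaled totals and leaving out replicate 1 of every group were added after the data had been seen.

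All 10 members, Cdh1, Cdh2, Epcam, Vim, Fn1 and Esrrb were always named. Of the other repressors, other epithelial factors and splicing regulators, genes that passed in CH relative to DMSO, 2i relative to FGF2_Activin or the floxed line could be named, as could every Esrp-spliced gene and, for levels, every marker. Of the epithelial and mesenchymal lists, up to 4 genes per direction and comparison with the largest change and a mean of at least 100 counts could be named. For each member averaging at least 1 CPM in wild-type cells, the 3 genes with the highest r could be named, and the highest is given.

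Exon overlaps were taken from GENCODE M21, near matches from blastn 2.17.0, promoter starts from RefSeq, and tables were made with Python 3.11.15.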

Additional observations from a re-analysis of the deposited data

How the results depend on the processing

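Of 640 alternative values for the 10 regulators over the 5 comparisons, 577 kept their direction and side of the threshold, 24 passed it where the reported value did not, 10 no longer passed and 29 changed sign. For the other named genes 1077 of 1154 were the same, 10 passed anew, 66 no longer passed and 1 changed sign. The number of regulators lower in 2i relative to FGF2_Activin went from 2 to 4 with unscaled totals and without replicate 1 of every group. Without replicate 1 of every group it also went from 0 to 1 in FGF2_Activin relative to DMSO (Zeb2) and from 1 to 2 in Esrrb_4OHT relative to Esrrb_NT. With only the 6 samples compared it went from 2 to 1 in 2i relative to CH. On leaving out 1 sample, the number higher and lower was 2 to 2 and 3 to 4 in CH relative to DMSO, 2 to 2 and 2 to 4 in 2i relative to FGF2_Activin, 0 to 0 and 1 to 2 in 2i relative to CH, 0 to 0 and 0 to 0 in FGF2_Activin relative to DMSO, and 2 to 3 and 1 to 2 in Esrrb_4OHT relative to Esrrb_NT. With replicate number as a block, Grhl3 and Twist1 passed in CH relative to DMSO, Twist1 in 2i relative to FGF2_Activin, Grhl2 in 2i relative to CH and Zeb2 in Esrrb_4OHT relative to Esrrb_NT, and no other regulator's call changed. Every change of sign was of a value that did not pass. On leaving out each sample in turn, the log2 fold change in CH relative to DMSO ranged from -0.51 to 0.25 for Snai2 (the sign changed without DMSO replicate 2, DMSO replicate 3 or CH replicate 2; samples are given in this way below). In 2i relative to FGF2_Activin it ranged from -0.75 to 0.084 for Cdh2 (2i replicate 1). In 2i relative to CH it ranged from -0.053 to 0.53 for Zeb1 (CH replicate 1), -0.044 to 0.064 for Ovol2 (CH replicate 1 and 2i replicate 2) and -0.24 to 0.10 for Esrp2 (CH replicate 1, 2i replicates 2 and 3). In FGF2_Activin relative to DMSO it ranged from -0.23 to 0.16 for Snai1 (DMSO replicates 2 and 3, FGF2_Activin replicates 2 and 3), -0.70 to 0.057 for Snai2 (DMSO replicates 2 and 3), -0.51 to 0.26 for Twist1 (DMSO replicate 3, FGF2_Activin replicate 1), -0.22 to 0.036 for Grhl2 (DMSO replicates 2 and 3, FGF2_Activin replicate 1), -0.69 to 0.080 for Grhl3 (DMSO replicate 2) and -0.11 to 0.046 for Esrp1 (DMSO replicate 1, FGF2_Activin replicates 2 and 3). The other changes of sign were Zeb2 in CH relative to DMSO (-0.058 without replicate 1 of every group), Ovol2 in 2i relative to CH (-0.029 with unscaled totals, -0.0061 without replicate 1 of every group) and Esrp1 in FGF2_Activin relative to DMSO (0.0034 with no filter on low counts, 0.00083 with only the 6 samples compared). The cause was not tested. Few counts were found for Snai2 in all wild-type groups and Esrrb_NT (at most 36 and 7) and Zeb1 in DMSO and FGF2_Activin (at most 12 and 26). The same holds for Twist1 in 2i and Esrrb_NT (at most 26 and 24) and Zeb2 in FGF2_Activin, 2i and Esrrb_NT (at most 26, 34 and 32). Zeb2 reached 97 counts in CH and 115 in Esrrb_4OHT. Low counts may limit what could be found, which was not tested.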

Other observations

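The gene lists were also counted in the comparisons for which they were not given above. In 2i relative to CH, edgeR gave 0 of 8 other repressors higher and 0 lower (1 and 1 at unadjusted p under 0.05, 0 and 0 by DESeq2; median -0.40), and 0 of 10 splicing regulators higher and 0 lower (2 and 0, 0 and 0; 0.027). By edgeR 0 of 35 epithelial genes were higher and 0 lower (5 and 6 at unadjusted p under 0.05, 0 and 1 by DESeq2; median 0.047; 1 higher without replicate 1 of every group, 1 lower with a block or with no filter on low counts), 0 of 19 mesenchymal genes higher and 0 lower (2 and 3, 0 and 0; 0.031; 1 lower with a block and 3 without replicate 1 of every group) and 0 of 10 Esrp-spliced genes higher and 0 lower (2 and 1, 0 and 0; 0.10). Of 11 other epithelial factors, 0 were higher (1 at unadjusted p under 0.05, 0 by DESeq2; 1 with a block or without replicate 1 of every group) and Foxa2 and Cdx2 lower by edgeR (median -0.54), the number lower being 0 without 2i replicate 2 and 1 without CH replicate 2, CH replicate 3, 2i replicate 1 or 2i replicate 3 or with only the 6 samples compared.

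In FGF2_Activin relative to DMSO, edgeR gave 0 of 8 other repressors higher and 0 lower (0 and 1 at unadjusted p under 0.05, 0 and 1 by DESeq2; median -0.12; 1 lower without DMSO replicate 2, with a block or with no filter on low counts), and 0 of 10 splicing regulators higher and 0 lower (0 and 1, 0 and 0; 0.0043). By edgeR 0 of 35 epithelial genes were higher and 0 lower (1 and 2 at unadjusted p under 0.05, 0 and 0 by DESeq2; median -0.17) and 0 of 19 mesenchymal genes higher and 0 lower (2 and 2, 0 and 0; 0.11; 1 higher without replicate 1 of every group). Of 11 other epithelial factors 0 were higher (0 at unadjusted p under 0.05, 0 by DESeq2) and Tfap2a lower by edgeR (-1.03; list median -0.068), a count of 0 without DMSO replicate 3, without FGF2_Activin replicate 2 or with only the 6 samples compared, and of 2 without replicate 1 of every group or by the DESeq2 test. Of 10 Esrp-spliced genes, 0 were higher (0 at unadjusted p under 0.05, 0 by DESeq2) and Fgfr2 lower (-2.41 ± 0.43, edgeR adjusted p = 0.00904; list median -0.14), a call lost on leaving out any of the 6 samples, with a log2 fold change of -2.60 to -2.24 and an edgeR adjusted p of 0.0144 to 0.0437. Foxa2, Cdx2 and Tfap2a were named here after their values were seen.

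Of 6 formative pluripotency markers, 6 averaged at least 1 CPM in DMSO, FGF2_Activin, Esrrb_4OHT and Esrrb_NT, 5 in CH and 4 in 2i. They summed to 2444, 3622 and 3938 CPM in DMSO, 3032, 3698 and 3547 in FGF2_Activin, 539.8, 954 and 882 in CH, 358, 493 and 479.8 in 2i, 609.8, 905 and 799 in Esrrb_4OHT and 1033, 1391 and 1380.5 in Esrrb_NT, with Dnmt3b the most abundant in each. Of 8 primitive endoderm markers, the sum was 20.3, 16.8 and 21.8 CPM in DMSO (4 of 8 at 1 CPM or more), 11.6, 10.6 and 10.8 in FGF2_Activin (3 of 8), 107, 45.1 and 47.4 in CH (2 of 8), 142, 81.1 and 85.8 in 2i (1 of 8), 22.5, 29.8 and 29.3 in Esrrb_4OHT (4 of 8) and 31.0, 27.8 and 29.7 in Esrrb_NT (2 of 8), with Lama1 the most abundant in each and Gata6 at 3 counts or fewer in FGF2_Activin and 2i. Of 8 trophectoderm markers, it was 43.1, 47.3 and 31.8 CPM in DMSO (3 of 8), 29.7, 39.3 and 37.1 in FGF2_Activin (3 of 8), 102, 64.3 and 56.2 in CH (4 of 8, Cdx2 the most abundant), 22.2, 20.3 and 23.2 in 2i (4 of 8), 67.5, 68.6 and 70.2 in Esrrb_4OHT (4 of 8) and 44.4, 51.8 and 52.3 in Esrrb_NT (3 of 8), with Tpbpa at 3 counts or fewer in every group. Of 9 neural markers, it was 102, 116 and 131 CPM in DMSO (3 of 9), 129.8, 120.3 and 118 in FGF2_Activin (2 of 9), 24.3, 45.1 and 37.8 in CH (3 of 9) and 22.5, 28.7 and 31.4 in 2i (3 of 9), with Nes the most abundant in DMSO, FGF2_Activin and CH and Foxd3 in 2i. Of 8 fibroblast markers, it was 54.8, 22.1 and 24.1 CPM in DMSO (3 of 8), 32.7, 18.3 and 21.1 in FGF2_Activin (4 of 8), 13.4, 10.7 and 7.68 in CH (3 of 8), 4.74, 4.90 and 4.69 in 2i (2 of 8), 10.9, 13.1 and 13.9 in Esrrb_4OHT (4 of 8) and 18.5, 25.0 and 26.8 in Esrrb_NT (1 of 8), with Postn at 3 counts or fewer in every group. The sums did not stand for every marker. Lama1 averaged 62.8 CPM in CH and 101 in 2i. Of 8 primitive endoderm markers, 5 had a negative log2 fold change in CH relative to DMSO (median -1.18) and 6 in 2i relative to FGF2_Activin (-0.92). Cdx2 averaged 63.8 CPM in CH, while 3 of 4 trophectoderm markers tested had a negative value relative to DMSO (-1.67). With 4OHT, Thy1 fell from 22.6 to 6.26 CPM while 3 of 4 fibroblast markers tested rose (2.94). Their part in the result was not tested.

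Over the 12 wild-type samples, the gene most like each regulator by Pearson r of log2(CPM + 1), among 16385 genes, was Krt23 for Snai1 (r = 0.957), Tsix for Zeb1 (0.995), Pros1 for Zeb2 (0.916), Eif1b for Twist1 (0.975), Prelid3a for Grhl2 (0.995), Cd38 for Grhl3 (0.981), Krt1 for Ovol2 (0.992), Fndc3c1 for Esrp1 (0.990) and Tek for Esrp2 (0.984). The samples share their groups and replicate numbers, each gene is the best of many, and no p was computed. Snai2 averaged under 1 CPM and was not ranked.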
